A study of Mus musculus with 35 samples.

Results

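The regions that KLF4 occupied on day 3 of reprogramming in both deposited KLF4 libraries were split by whether the starting fibroblasts already carried acetylated lysine 27 of histone H3 (H3K27ac) there. The 2 day 3 peak lists on chromosomes 1 to 19 and X merged into 44618 regions, and 17909 of them (40.1%) were overlapped by a peak of both lists. These are called targets below. A target with an H3K27ac peak in both fibroblast libraries is called pre-acetylated (8699 targets, 48.6%), and a target with a peak in neither is called non-acetylated (8455 targets, 47.2%). The remaining 755 targets (4.22%) had a peak in 1 of the 2 fibroblast libraries and are given by count and share. Merging the KLF4 lists of all 10 libraries of the series gave 85740 regions.

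KLF4 is a zinc finger transcription factor that recognises GC-rich and CACCC-type sequence and belongs, with OCT4, SOX2 and MYC, to the factors that turn fibroblasts into pluripotent cells. Acetylation of H3 at lysine 27 marks promoters and enhancers in use. Promoter acetylation is widely shared between cell types, whereas acetylation at distal elements differs between them, so a factor that arrives in fibroblasts can meet both kinds of chromatin.

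The starting cells were mouse embryonic fibroblasts (MEF) of a C57BL/6 x 129 background with the reprogramming cassette OKSM at Col1a1 and the doxycycline-controlled activator M2rtTA at Rosa26, and every fibroblast and reprogramming library used here is labelled with both. MEF libraries are labelled as unsorted cells in MEF medium without doxycycline. The MEF input library, not analysed here, is labelled with doxycycline medium, and strain or genotype numbers of several inputs differ from those of the other samples. Day 3 libraries came from unsorted cells kept in embryonic stem cell (ESC) medium to which doxycycline (1 µg/ml) and ascorbic acid (50 µg/ml) had been added, so the step from MEF to day 3 changed the medium as well as the factors. Day 6 and day 9 cells were grown as on day 3 and sorted for SSEA+ cells, as the labels spell it. The pluripotent reference was V6.5, an ESC line labelled with the same strain background, grown on irradiated feeder cells. ESC libraries were from ESC medium, and part of the KLF4 libraries from ESC medium with a MEK inhibitor at 1 µM and a GSK3 inhibitor at 3 µM (2i). The H3K27ac libraries numbered 2 for MEF, 3 each for day 3 and day 6, and 2 each for day 9 and ESC, and KLF4 had 2 libraries each for day 3, day 6, day 9, ESC and ESC with 2i. Endogenous copies of Pou5f1, Klf4, Sox2 and Myc share their exons with the cassette, so peaks on those exons cannot be told apart from cassette signal. In bulk day 3 cells, a mark in fewer cells and a weaker mark per cell cannot be told apart.

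The 12 H3K27ac lists held 17493 to 88347 peaks, fewest on day 6 (17493 to 22462) and most in MEF (88070 and 88347), and the 10 KLF4 lists held 21129 to 34640. Sequencing depth is not part of a peak list, so a region without a peak may carry signal below the calling limit. Of 6 fibroblast marker genes (Thy1, Col1a1, Col1a2, Twist2, Prrx1, Pdgfra), all 6 had H3K27ac within 2.5 kb in both MEF libraries and 5 in each day 3 library, with Pdgfra lacking it. In MEF, 2 of 6 pluripotency markers (Sox2, Dppa3), 1 of 6 epithelial markers (Krt8), 2 of 6 endothelial markers (Tek, Erg) and 2 of 6 macrophage markers (Csf1r, Spi1) had it. On day 3 those counts were 1 to 2, 1 to 2, 1 to 3 and 2 to 3, and the part of other cells in the values below was not tested.

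Promoters bound on day 3 are shown first, because the search letters and the 2 classes can be read in them. Each line holds the 250 bases before a RefSeq gene start of the GRCm38.p6 assembly, 5′ to 3′ on the gene's strand. Capitals mark matches to GGGNGTGG, a KLF-type motif, or to its reverse complement. Among the chromosomes included in this choice, they are the promoters of the best ranked targets that cover at least 200 of these bases. Not every chromosome was included, so a better ranked promoter may exist elsewhere.
Arhgap28, pre-acetylated and acetylated on day 3 (chr17:68004109-68004358, minus strand, target of 1223 bp): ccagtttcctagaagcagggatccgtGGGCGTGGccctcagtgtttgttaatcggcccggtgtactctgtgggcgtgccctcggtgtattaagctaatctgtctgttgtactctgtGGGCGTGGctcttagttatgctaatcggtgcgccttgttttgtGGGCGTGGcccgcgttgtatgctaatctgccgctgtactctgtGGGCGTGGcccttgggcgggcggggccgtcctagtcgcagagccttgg
Ass1, pre-acetylated and without day 3 H3K27ac (chr2:31470020-31470269, plus strand, target of 1309 bp): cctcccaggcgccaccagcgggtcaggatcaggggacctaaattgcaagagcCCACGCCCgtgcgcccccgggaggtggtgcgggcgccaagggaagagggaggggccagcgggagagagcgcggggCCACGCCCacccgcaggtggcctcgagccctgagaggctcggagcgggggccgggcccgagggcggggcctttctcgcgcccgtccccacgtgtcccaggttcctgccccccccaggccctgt
Slc25a23, non-acetylated and acetylated on day 3 (chr17:57059843-57060092, minus strand, target of 1687 bp): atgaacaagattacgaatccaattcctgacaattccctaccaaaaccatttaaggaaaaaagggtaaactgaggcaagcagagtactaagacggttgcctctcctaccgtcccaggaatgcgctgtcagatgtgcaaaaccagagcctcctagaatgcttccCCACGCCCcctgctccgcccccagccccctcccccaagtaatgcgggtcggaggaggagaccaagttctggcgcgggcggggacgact
Tex46, non-acetylated and without day 3 H3K27ac (chr4:136610187-136610436, plus strand, target of 632 bp): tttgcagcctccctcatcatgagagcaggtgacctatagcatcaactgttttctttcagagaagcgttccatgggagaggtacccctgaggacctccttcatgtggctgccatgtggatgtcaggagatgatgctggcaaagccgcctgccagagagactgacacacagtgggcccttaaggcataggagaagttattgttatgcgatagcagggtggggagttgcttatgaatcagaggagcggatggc

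Arhgap28 had 4 matches in its window, and Ass1, the argininosuccinate synthase gene of arginine synthesis, had 2. Slc25a23, a mitochondrial carrier gene, had 1 match, and Tex46 had 0 matches and 1 match to TGANTCA. Over the 300 base windows from 250 bases before to 50 after a start, 19.6% of all 21045 windows held GGGNGTGG on either strand. The share was 31.4% of the 4218 windows touched by a pre-acetylated target, 36.2% of the 196 touched by a non-acetylated target and 16.4% of the 16585 without a target. TGANTCA, the letters of an AP-1 site, which can share no base with a GGGNGTGG match, stood in 7.04% of all windows, 4.13% of the pre-acetylated and 3.57% of the non-acetylated ones. Median GC content was 65.7% in windows with a pre-acetylated target, 62.0% with a non-acetylated target and 56.7% over all windows. Both classes thus held the KLF letters more often than windows at large, and both were richer in G and C, which was not separated from the motif share. A match is a description of letters and not a measured site.

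With the gene starts used here, most pre-acetylated targets lay near a gene start and most non-acetylated targets lay away from one. Of the pre-acetylated targets 61.3% lay within 2.5 kb of a protein-coding gene start (95% Wilson interval 60.3 to 62.3), against 9.15% of the non-acetylated ones (8.56 to 9.79), and the intervals cover counting error alone. A start was inside the target in 44.7% and 2.35%, respectively. With the starts of the RefSeq promoter table alone, 49.99% and 6.52% lay near one, so the pre-acetylated majority depends on the starts used. Median distance was 0.251 kb for pre-acetylated and 29.4 kb for non-acetylated targets, and 35.6% of the latter were more than 50 kb from any start. After moving every target by 1 Mb, 8.27% and 6.72% were near a start, and both observed shares were above those of the displaced positions, that of the non-acetylated targets by less. The midpoint fell inside a gene's span in 63.1% of pre-acetylated and 55.0% of non-acetylated targets.

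The classes also differed in width, while median deposited KLF4 folds were close to each other. Median width was 588 bp (quartiles 437 and 785) for pre-acetylated and 445 bp (354 and 578) for non-acetylated targets. In the DG-4040 KLF4 library the median deposited fold enrichment was 3.46 in both classes, and in the EA-3702 library it was 5.79 and 5.47. Among targets far from starts the median widths were 544 and 445 bp, so the difference in width was also present away from promoters. These folds are the authors' peak values, taken from the libraries that also defined the targets, and they describe the classes with no test.

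**Figure D1:**
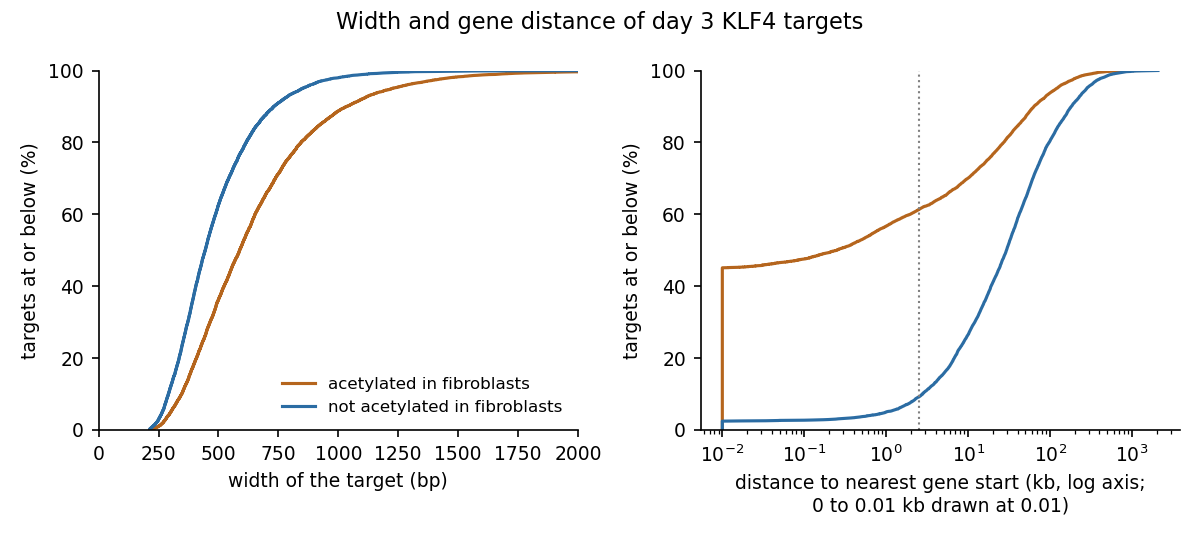
Cumulative share of targets (%) against target width in bp (left, linear axis drawn to 2000 bp) and against distance to the nearest protein-coding gene start in kb (right, log axis, dotted line at 2.5 kb), for pre-acetylated (brown) and non-acetylated (blue) targets. The brown distance curve begins near 44.7% because those targets contain a start, and the blue curve reaches 9.15% at the dotted line.

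H3K27ac was found on most pre-acetylated targets on day 3 and on a minority of the non-acetylated ones. Pre-acetylated targets had a day 3 peak in 81.8% and 79.2% (batch DG-3458) and 88.8% (batch EA-3702) of cases, a mean of 83.3% ± 4.97 (SD, n = 3). Non-acetylated targets had one in 32.0%, 26.7% and 40.9% in the same order, a mean of 33.2% ± 7.18 (SD, n = 3). The values of the 2 classes did not overlap, and the EA-3702 library was the highest in both. The difference within a library was 49.8, 52.5 and 47.9 percentage points, so it was of like size in the 2 DG-3458 libraries and the 1 EA-3702 library. Both MEF libraries that define the classes were of batch DG-3458. With targets moved by 1 Mb the day 3 lists met 2.58% to 3.71% of pre-acetylated and 1.83% to 2.57% of non-acetylated positions.

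By the count of libraries, 7277 pre-acetylated targets (83.7%) had H3K27ac in at least 2 of the 3 day 3 libraries, 749 (8.61%) had it in 0, and 673 (7.74%) in 1. Of the non-acetylated targets, 2694 (31.9%) had it in at least 2, 4541 (53.7%) in 0 and 1220 (14.4%) in 1. The same count over all 62480 fibroblast H3K27ac regions gave 31.5%. Over the KLF4 regions of any library, these targets included, it gave 69.9% of those with fibroblast H3K27ac and 7.58% of those without. Both classes of target were thus acetylated on day 3 more often than KLF4 regions at large of the same fibroblast status. The 755 undecided targets lay between the classes, with 48.2% ± 8.95 (SD, n = 3) acetylated on day 3.

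The difference between the classes was present in 10 of 10 H3K27ac libraries of day 3, day 6, day 9 and ESC. Its mean was 43.4 percentage points, and a two-sided exact sign-flip permutation test over the 10 libraries gave p = 0.00195, the smallest the test can give (Benjamini-Hochberg adjusted p = 0.00586 over 6 tests). The 3 day 3 libraries alone cannot go below p = 0.25 in this exact test. All libraries were read over the same regions, and nothing in the labels says that libraries came from separate animals, so p-values measure the spread between libraries. Near gene starts the mean difference was 49.1 percentage points and far from them 25.3, each positive in 10 of 10 libraries. The day 3 shares depend on the libraries and the overlap used: with the DG-4040 KLF4 library alone as the target list, 75.4% of pre-acetylated and 15.4% of non-acetylated targets were acetylated on day 3, and with the EA-3702 library alone 77.5% and 22.9%. Requiring an overlap of 50% of the shorter interval gave 68.1% and 16.0%, and looking at the central 200 bp gave 73.4% and 21.1%.

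**Figure D2:**
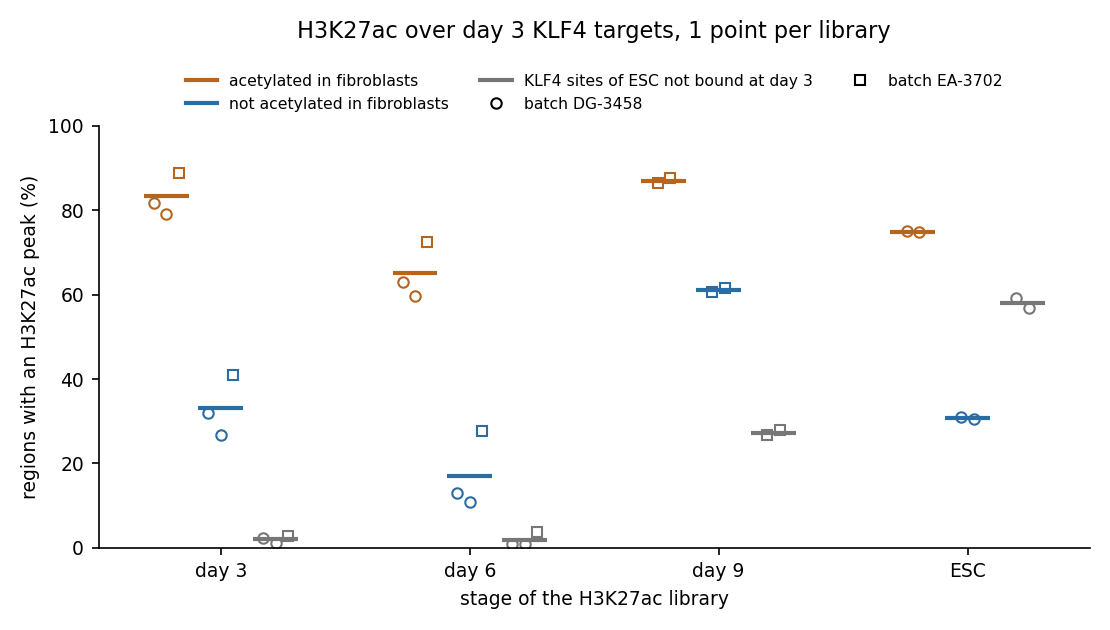
Share of regions with an H3K27ac peak (%, y axis) in each library of day 3, day 6, day 9 and ESC (x axis), for pre-acetylated targets (brown), non-acetylated targets (blue) and ESC KLF4 sites not bound on day 3 (grey). Points are libraries, marker shapes are batches and bars are means, and brown points lie above blue points at every stage.

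Wider targets were acetylated on day 3 more often in both classes. Targets of both classes were ranked by width and divided into 4 groups. In the narrowest (213 to 384 bp) the 3 libraries gave 12.4%, 8.61% and 17.6% of non-acetylated and 62.0%, 55.3% and 74.7% of pre-acetylated targets. In the widest (680 bp and above) they gave 75.2%, 68.7% and 82.9% of non-acetylated and 94.5%, 93.4% and 97.3% of pre-acetylated targets. A wide interval has more room for an overlap, so the same was read over the central 200 bp, where non-acetylated targets ran from 9.53%, 6.12% and 14.3% in the narrowest group to 43.0%, 36.2% and 65.7% in the widest. At every width, pre-acetylated targets were above non-acetylated ones in each library. Enrichment moved the same way: median deposited KLF4 fold was 7.84 on non-acetylated targets that were acetylated on day 3 and 4.67 on those that were not in the EA-3702 library, and 4.26 and 3.19 in the DG-4040 library.

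**Figure D3:**
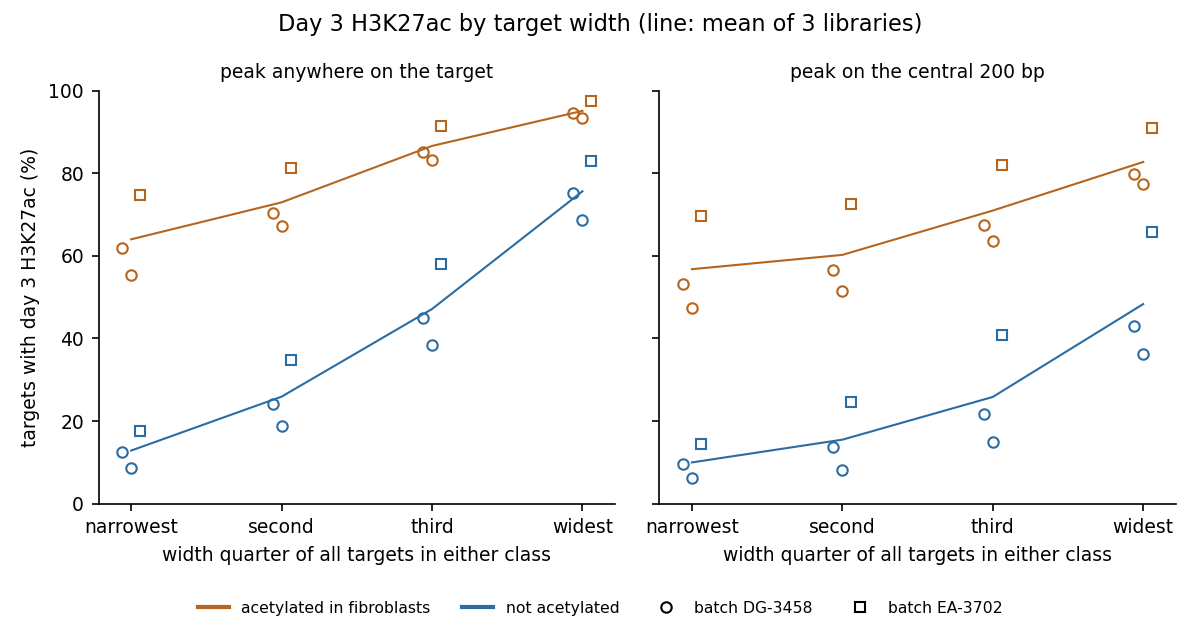
Share of targets with a day 3 H3K27ac peak (%, y axis) by width group (x axis), with the peak anywhere on the target (left) or on its central 200 bp (right). Points are the 3 day 3 libraries, shapes are batches, lines join the means, and blue (non-acetylated) rises from 12.4%, 8.61% and 17.6% to 75.2%, 68.7% and 82.9% in the left panel.

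Among pre-acetylated targets, those without the mark on day 3 had lower and narrower fibroblast peaks, which is given as a description with no test. Median deposited fold of the overlapping MEF H3K27ac peak was 18.9 in both MEF libraries on the 7277 targets acetylated on day 3 and 7.17 and 7.10 on the 749 that were not. Their median MEF peak widths were 1950 and 1947 bp against 947 and 961 bp. Of the 749, 34.2% lay near a gene start, against 66.0% of the 7277. On day 9, KLF4 peaks were on 51.0% and 52.7% of the 749 and on 68.6% and 72.0% of the 7277. On day 9, H3K27ac was on 43.5% and 45.7% of the 749 and on 93.0% and 94.1% of the 7277. In ESC it was on 39.0% and 37.1% of the 749 and on 81.13% and 81.09% of the 7277.

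Non-acetylated targets were also set beside fibroblast acetylation in their surroundings. Their median gap to the nearest MEF H3K27ac peak of either library was 8453 bp, 7108 bp for those acetylated on day 3 and 9561 bp for those that were not. Within 1 kb of such a peak 36.4%, 30.9% and 46.2% were acetylated on day 3, and beyond 20 kb 26.0%, 21.5% and 35.6%. Between the outer groups, this decline with distance was smaller than the rise with target width, also with that rise read over the central 200 bp. Distance and width were cut into groups of unlike kind, so the order holds for these groups alone.

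Fibroblast H3K27ac regions holding a KLF4 target were acetylated on day 3 more often than those without KLF4. Of the 62480 fibroblast regions 8759 held a target and 47122 met no peak of either day 3 KLF4 library. With a target 82.1% to 89.1% had a day 3 peak (85.2% ± 3.55, SD, n = 3), and without KLF4 14.0% to 19.9% had one (17.4% ± 3.04, SD, n = 3). The difference averaged 64.9 percentage points over the 10 libraries, was positive in 10 of 10, and gave p = 0.00195 in the two-sided exact sign-flip permutation test (adjusted p = 0.00586). Regions with a target were wider (median 1849 against 814 bp) and nearer to starts (61.3% against 12.5% within 2.5 kb), so each was held in turn. Near starts the day 3 means were 89.9% and 45.9%, and far from starts 77.7% and 13.4%. At 2000 bp or more the libraries gave 95.5%, 94.7% and 97.0% with a target and 38.9%, 31.2% and 40.0% without KLF4. Under 500 bp they gave 44.3%, 40.6% and 53.6% against 6.70%, 4.74% and 8.11%. Among regions far from starts, those of 2000 bp or more gave 92.1%, 89.4% and 93.7% with a target. Without KLF4 they gave 33.6%, 25.3% and 34.0%. The gap remained in each width group, and peak height was not held.

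**Figure D4:**
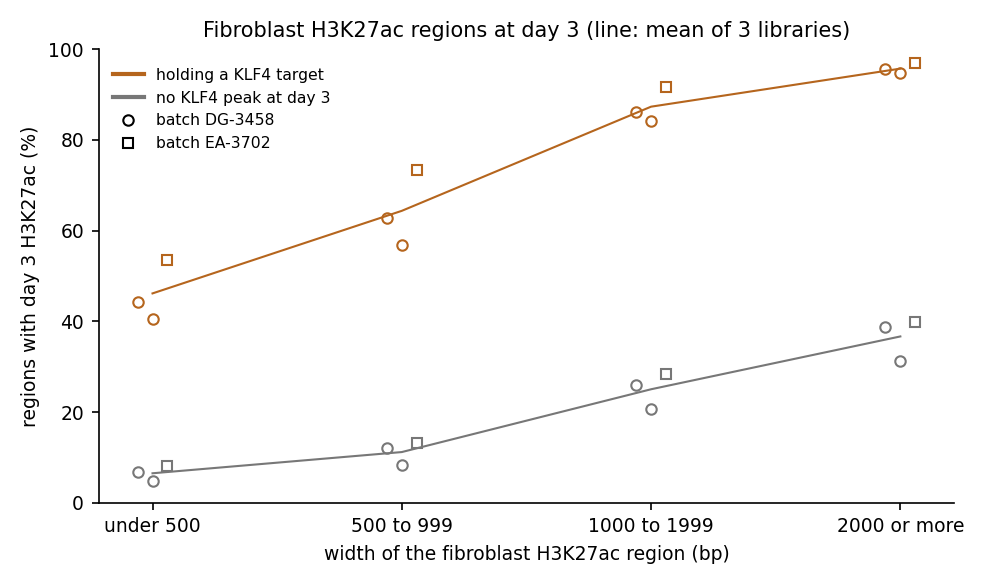
Share of fibroblast H3K27ac regions with a day 3 H3K27ac peak (%, y axis) by region width in bp (x axis), for regions holding a day 3 KLF4 target (brown) and regions without a day 3 KLF4 peak (grey). Points are the 3 libraries, shapes are batches and lines join the means, and in the widest group brown lies at 94.7% to 97.0% and grey at 31.2% to 40.0%.

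Non-acetylated targets were compared with KLF4 sites that came later. ESC had 4950 KLF4 sites, found in both ESC libraries, that met no day 3 KLF4 peak and no MEF H3K27ac peak. On day 3, 2.24%, 1.23% and 2.75% of them were acetylated, against 32.0%, 26.7% and 40.9% of the non-acetylated targets. On day 6 the values were 0.929%, 0.808% and 3.64% against 12.9%, 10.8% and 27.7%. The difference over these 6 libraries averaged 23.2 percentage points, was positive in 6 of 6, and gave p = 0.0312 in the two-sided exact sign-flip permutation test, the smallest it can give (adjusted p = 0.0312). It fell to 8.29 when the EA-3702 day 3 KLF4 library was left out and to 14.5 without the DG-4040 one. An overlap of 50% of the shorter interval gave 11.1 and the central 200 bp gave 13.5, each positive and with exact permutation p = 0.0312. With any of the 6 H3K27ac libraries left out the smallest possible p is 0.0625. The later sites were narrower (median 271 bp). In ESC the order was the other way, with 59.3% and 56.8% of later sites and 31.0% and 30.4% of non-acetylated targets acetylated. The later sites were chosen by their KLF4 peaks in ESC, and the part of this choice in that order was not tested.

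Acetylation of both classes differed between stages. Pre-acetylated targets stood at 83.3% ± 4.97 on day 3, 65.1% ± 6.64 on day 6 (SD, n = 3 each), 87.0% ± 0.821 on day 9 and 74.9% ± 0.0569 in ESC (SD, n = 2 each). The between-stage F was 10.9 with p = 0.00905 in an exact permutation test over 25200 labelings (adjusted p = 0.0136). Non-acetylated targets stood at 33.2% ± 7.18, 17.1% ± 9.19, 61.1% ± 0.694 and 30.7% ± 0.427, with F = 17.2 and p = 0.00444 in the same exact permutation test (adjusted p = 0.00889). By stage means, day 6 was the lowest in both classes and day 9 the highest. Day 9 came from batch EA-3702 alone and ESC from DG-3458 alone. Within EA-3702, pre-acetylated targets gave 88.8% on day 3, 72.5% on day 6, and 86.4% and 87.6% on day 9, so in that batch day 3 and not day 9 was the highest. In the same batch non-acetylated targets gave 40.9% on day 3, 27.7% on day 6, and 60.6% and 61.6% on day 9. Within DG-3458 pre-acetylated targets gave 81.8% and 79.2% on day 3, 63.1% and 59.7% on day 6, and 74.97% and 74.89% in ESC. There non-acetylated targets gave 32.0% and 26.7% on day 3, 12.9% and 10.8% on day 6, and 31.0% and 30.4% in ESC. Day 6 also had the fewest peaks. When each list was cut to an equal count of its top peaks, F was 16.3 (exact permutation p = 0.00508) for pre-acetylated and 7.23 (exact permutation p = 0.0262) for non-acetylated targets.

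The stages separated the non-acetylated targets by their day 3 outcome. Those acetylated on day 3 carried H3K27ac in 86.0% and 86.7% on day 9 and in 41.7% and 41.1% in ESC. Those not acetylated on day 3 carried it in 43.6% and 44.6% on day 9 and in 24.9% and 24.2% in ESC. KLF4 peaks in ESC were on similar shares of both: 45.4% and 32.6% of the targets acetylated on day 3 and 45.0% and 31.0% of the others had an ESC KLF4 peak (libraries EA-2643 and EA-2697). With 2i the shares were 25.3% and 19.5% against 27.7% and 24.9% (DG-3012 and EA-3702), lower for those acetylated on day 3. On day 6 and day 9 the KLF4 shares lay farther apart, with 79.7% and 71.0% against 69.2% and 53.9% on day 6 (DG-4040 and EA-3702) and 68.1% and 68.4% against 56.5% and 58.0% on day 9. The targets acetylated on day 3 were also wider (median 584 bp against 389 bp), and width was not held here. These differences were not tested.

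KLF4 peaks were found again on pre-acetylated targets more often than on non-acetylated ones. The difference between stages was tested separately (F = 6.78, exact permutation p = 0.0667) and did not pass. On day 6 the shares were 71.3% (DG-4040) and 80.3% (EA-3702) of pre-acetylated against 73.1% and 59.99% of non-acetylated targets, so the 2 libraries gave opposite directions. On day 9 they were 65.8% and 69.0% against 60.7% and 61.7%. In ESC they were 72.1% and 55.9% against 44.4% and 31.0%, and with 2i 61.4% and 62.7% against 26.0% and 22.2%. The difference averaged 19.9 percentage points over 8 libraries, was positive in 7 of 8, and gave p = 0.0156 in the two-sided exact sign-flip permutation test (adjusted p = 0.0188). Far from starts it was 2.51 percentage points, positive in 5 of 8 libraries, with p = 0.445 in the same exact permutation test, and near starts it was 19.1, positive in 7 of 8, with p = 0.0156 in that exact permutation test. Whether near and far targets differed from each other in this was not tested. Among far targets on day 9, pre-acetylated ones had fewer KLF4 peaks (50.9% and 53.4%) than non-acetylated ones (60.1% and 61.1%). In ESC the far classes were 49.4% and 35.5% against 42.4% and 29.6%, in the opposite order to day 9.

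**Figure D5:**
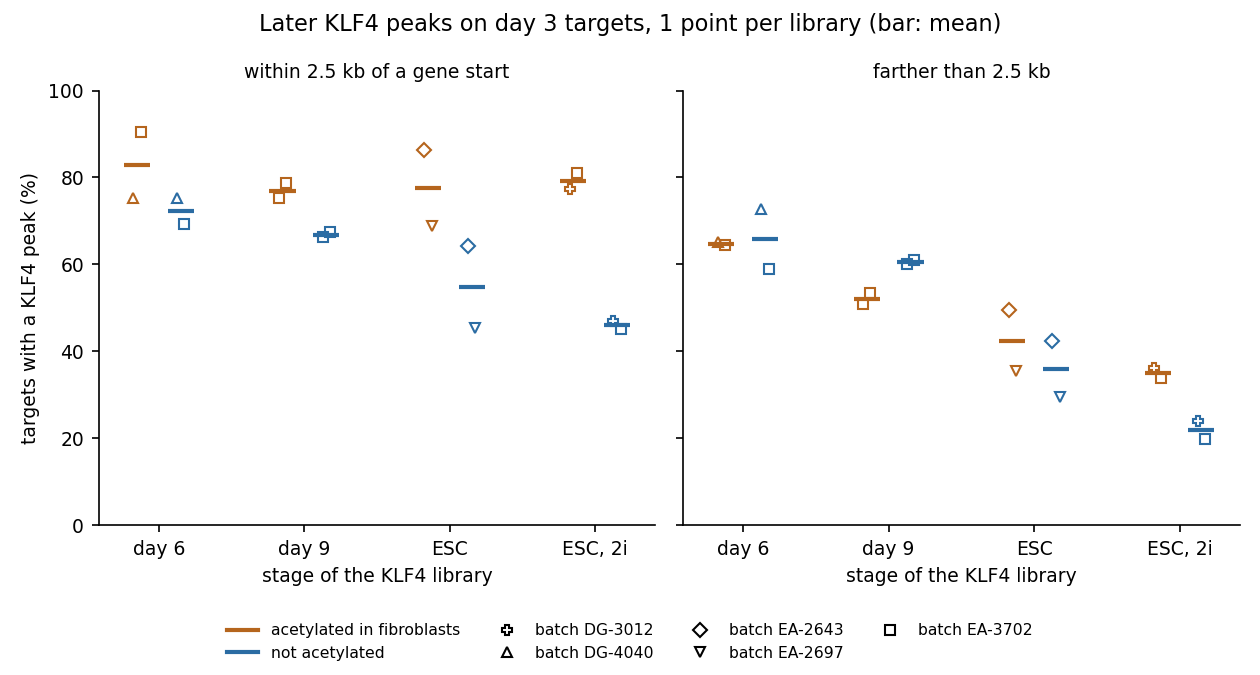
Share of day 3 targets with a KLF4 peak (%, y axis) in later KLF4 libraries (x axis), near gene starts (left) and far from them (right), for pre-acetylated (brown) and non-acetylated (blue) targets. Points are libraries, shapes are batches and bars are means, and on day 9 the far panel shows blue (60.1% and 61.1%) above brown (50.9% and 53.4%).

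The best ranked targets of each class and outcome show the patterns at single places (mm10, with distances to starts or, where the start table lacks the gene, to a gene end). The best pre-acetylated target that stayed acetylated near a start was that of Arhgap28 (chr17:68003623-68004845), with KLF4 folds of 28.0 and 47.1 in DG-4040 and EA-3702. Its H3K27ac folds were 13.0 and 15.2 in MEF and 6.56, 8.24 and 12.5 on day 3. Map4k4, a kinase gene, had a target inside the gene's span that covers an end of it (chr1:39900163-39901894) with H3K27ac folds of 42.6 and 34.2 in MEF and 20.9, 20.1 and 26.9 on day 3. Others of this class were nearest to Grap, an adaptor gene, Klhdc8a, and Src, a tyrosine kinase gene, at 9.82 to 32.5 kb. Folds of different libraries are separate peak values and are not compared across libraries.

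Pre-acetylated targets without day 3 H3K27ac included the Ass1 promoter (chr2:31469554-31470862), with KLF4 folds of 24.0 and 45.1. It had MEF H3K27ac folds of 10.6 and 9.05, no peak in the 3 day 3 libraries, a fold of 3.10 in 1 of 3 day 6 libraries, and day 9 folds of 8.47 and 10.4. The start of Usp12, a deubiquitinase gene (chr5:146794857-146795341), had MEF folds of 20.1 and 18.6, no peak on day 3 or day 6, and day 9 folds of 14.6 and 14.2. At these 2 promoters a called peak was absent on day 3 and present on day 9, while KLF4 peaks were found in 8 of 8 later KLF4 libraries. Gipc2, Rab42 and Cibar2 were nearest to the other 3 targets, each with KLF4 in 8 of 8 later libraries. The Gipc2 target had no H3K27ac peak in any day 6, day 9 or ESC library, and those of Rab42 and Cibar2 had a day 9 peak in 1 of 2 libraries each.

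Of the 5 best ranked non-acetylated targets with day 3 H3K27ac, 4 lay farther than 2.5 kb from a start and that of Sulf2 lay nearer. The target 17.9 kb from the start of Klf13, a gene of the KLF family (chr7:63956861-63957766), had KLF4 folds of 27.7 and 34.8, no MEF H3K27ac peak, and day 3 folds of 18.1, 18.5 and 22.9. A target 36.8 kb from the start of Maml2, a Notch coactivator gene, and inside that gene (chr9:13699250-13700207), had day 3 folds of 9.31, 9.09 and 7.49 and day 9 folds of 14.3 and 15.1. The target 1.14 kb (1135 bp) from the start of Sulf2, a heparan sulfate sulfatase gene (chr2:166156818-166157736), had day 3 folds of 7.96, 6.99 and 13.6. Ext1, a heparan sulfate synthesis gene, and Adamts7, a protease gene, were nearest to the others. Counting by nearest gene, Egln3, which codes for a prolyl hydroxylase, had 8 gained among 11 non-acetylated targets, and Asap2 and Plcl1 each had 7 of 9. Dusp4 and Golph3 had 6 of 7, Zfp217 had 6 of 10, and Foxp1 and Sipa1l2 had 6 of 12, against 31.9% of all non-acetylated targets. These genes were ranked by that count, which gives it no test.

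Strong KLF4 peaks without acetylation also existed. The target inside Map3k6, a kinase gene (chr4:133250311-133251534), had KLF4 folds of 25.8 and 30.6 and KLF4 peaks in 8 of 8 later libraries, and no H3K27ac peak in MEF, day 3, day 6 or day 9. The target 2.24 kb from the start of Lrrc26 and inside Grin1 (chr2:25292151-25293467) had folds of 18.7 and 39.6 and was likewise without H3K27ac through day 9. The target inside Snx18, a sorting nexin gene (chr13:113607315-113608327), had no day 3 peak and day 9 folds of 16.8 and 18.7. Those nearest to Rsbn1 and Polr1b completed the 5.

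By gene, 5392 of 21631 protein-coding genes (24.9%) had a pre-acetylated target near a start, 758 (3.5%) a non-acetylated one and 210 both. Genes with a pre-acetylated target acetylated on day 3 came to 22.8%, and genes with a non-acetylated target acetylated on day 3 to 1.05%. The lists below are read against these shares. They were chosen with results of these data known and have no test.

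Lists tied to the fibroblast state and to growth had mostly pre-acetylated targets, as did genes at large, where 5392 of the 5940 genes with a pre-acetylated or non-acetylated target near a start had a pre-acetylated one. Of 14 contractile and actin genes 9 had one and 0 had a non-acetylated target. All 9 were acetylated on day 3, among them Actn4, an actin crosslinker (KLF4 folds 6.25 and 9.11), and Tpm4, a tropomyosin (4.26 and 12.1). Of 16 genes of the TGF-beta pathway 11 had a pre-acetylated target, 10 of them acetylated on day 3, such as the receptor gene Tgfbr1 and the effector genes Smad2 and Smad4. Of 10 AP-1 factors 8 had one, led by Jund (folds 9.58 and 20.2) and Junb (6.28 and 12.3), and 7 were acetylated on day 3, with Fosl1 the exception. Of 18 fibroblast identity genes 7 had one, led by Vim, the intermediate filament gene (9.27 and 15.8), and 6 were acetylated on day 3. Dcn, which codes for the matrix proteoglycan decorin, was the fibroblast gene whose target (chr10:97479192-97479686) had no day 3 peak. Col1a1, the locus that carries the cassette, had 2 targets: a pre-acetylated one (chr11:94936765-94937488), with H3K27ac in 3 of 3 day 3 libraries, and a non-acetylated one (chr11:94952276-94952783), with it in 2 of 3. The latter was the only non-acetylated target of the fibroblast list (1 of 18 genes, 5.56%, against 3.5% of all genes). The start table lacks Col1a1, and its 2 targets lay near different ends of the gene, 903 and 512 bp away. At most 1 of them is thus near its start. Of 16 cell cycle and p53 pathway genes 12 had a pre-acetylated target acetylated on day 3, led by Rb1 (7.31 and 21.6), and 1 (6.25%) had a non-acetylated target, Mycn, with H3K27ac in 1 of 3 day 3 libraries. Myc, whose exons the cassette shares, had 4 pre-acetylated targets, of which 1 was acetylated on day 3.

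The KLF and SP family, zinc finger factors related to KLF4, had pre-acetylated and no non-acetylated targets within 2.5 kb of a start. With 15 genes in the list and 3.5% of all genes holding a non-acetylated target, a count of 0 is near the general share. Of 15 genes 10 had a pre-acetylated target and 10 kept H3K27ac on day 3. Klf3 had KLF4 folds of 23.4 and 16.9, with a mean rank of 41.8 over the 2 KLF4 lists. Klf13 had folds of 8.52 and 15.2 at its start, a target of 3216 bp. Klf4 itself had folds of 5.32 and 12.03, over a region whose exons the cassette shares. Of the 16 targets near these genes 16 were acetylated on day 9 and 16 in ESC, and 15 had KLF4 in both ESC libraries. Over all pre-acetylated targets near starts, mean H3K27ac shares were 89.5% on day 3, 95.6% on day 9 and 91.5% in ESC. The family's H3K27ac counts are thus near those of such targets at large. ESC KLF4 peaks were on 86.4% and 68.9% of all pre-acetylated targets near starts in the 2 libraries, below the family's count, which was not tested. The family's counts need a peak in at least 2 libraries of a stage, whereas these shares are per library or means of libraries.

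Epithelial and pluripotency genes had more non-acetylated than pre-acetylated targets. Of 19 epithelial genes 6 had a non-acetylated target (Epcam, Cldn3, Cldn4, Cldn7, Esrp1 and Dsp), 2 a pre-acetylated one, and Krt8 an undecided one. None of those 6 was acetylated in at least 2 day 3 libraries, and Dsp, which codes for desmoplakin, had a peak in 1 library. The Cldn3 target (chr5:134985658-134986165), at a claudin gene, had KLF4 folds of 3.99 and 6.93. On day 6, 2 of these 6 targets were acetylated, and on day 9 all 6 were in both libraries, with KLF4 present in both day 6, both day 9 and both ESC libraries. In ESC, 3 of the 6 had H3K27ac in both libraries. Over all non-acetylated targets near starts, mean H3K27ac shares were 31.7% on day 3, 23.9% on day 6, 68.9% on day 9 and 45.6% in ESC. KLF4 peaks were on 75.3% and 69.4% of them on day 6, 66.3% and 67.4% on day 9 and 64.2% and 45.5% in ESC. These shares are per library or means of libraries, whereas a list target counted as acetylated has a peak in at least 2 libraries of a stage. Of the 6 epithelial targets 5 had no H3K27ac peak in any day 3 library, as did 434 of the 774 non-acetylated targets near starts.

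Of 17 pluripotency genes 5 had a non-acetylated target, 7 targets in all. Zfp42, also known as Rex1 (chr8:43306925-43307472), had KLF4 folds of 5.06 and 8.27 and no H3K27ac peak on day 3 or day 6. Fgf4, a growth factor gene (chr7:144863615-144864902), had KLF4 folds of 4.26 and 15.2 and H3K27ac in 3 of 3 day 3 libraries. Of the 3 targets at Pou5f1, which codes for OCT4, 1 was acetylated in 3 of 3 day 3 libraries (chr17:35505979-35506540), where exons are shared with the cassette. Sox2, also in the cassette, had 1 non-acetylated and 1 pre-acetylated target, both without day 3 H3K27ac. Of the 7 non-acetylated targets 2 were acetylated on day 3, 1 on day 6, 5 on day 9 and 7 in ESC. The shares over all non-acetylated targets near starts were 31.7%, 23.9%, 68.9% and 45.6% (means), so the day 3, day 6 and day 9 counts are near those of such targets at large. The counts need a peak in at least 2 libraries of a stage, whereas the means are over single libraries. Tdgf1 was the remaining gene with a non-acetylated target.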

How the data were processed

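ChIP-seq of H3K27ac (12 libraries) and KLF4 (10 libraries) was used, and the 13 input libraries were not analysed here. Each library has its own list of peaks, deposited by the authors without pooling. For every peak the authors' deposited columns give a score, its fold (a ratio), and, as −log10, its p-value and its q-value, the lowest deposited −log10 p being 2.00 to 2.09. The names cutadapt 1.8.1, Bowtie2 2.2.5, MACS2 2.1.1, deepTools 2.3.6 and build mm10 stand there per the submitters' processing notes, and settings are not given in the sources used here. Lists depend on depth and enrichment, which limits precision and is not known here.

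Peaks on chromosomes 1 to 19 and X were merged and overlapped at 1 bp or more in Python 3.11.15 with numpy 2.4.6 and pandas 2.3.3. Gene starts were those of the RefSeq promoter table (GRCm38.p6) for 17274 protein-coding genes and both gene ends for the other 4357. Near meant within 2.5 kb. Shares per library were compared by two-sided exact permutation tests (sign flips, or labels for the between-stage F), with Benjamini-Hochberg adjustment over 6 tests and a threshold of 0.05. Alternatives were the top 50% by score, q at most 0.01, equal numbers of top peaks (17493 and 21129), 50% overlap, the central 200 bp, other distances, a log2 odds ratio, blocks by replicate or batch, and leaving out each library. The scripts were first tested on simulated peak lists whose classes were known.

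Within each class and day 3 outcome the 5 targets with the best mean rank of score over the day 3 KLF4 lists were named, with 1 target per gene; list genes named are mostly those with the best ranked targets, and others were picked after their values were seen. Members, lists and tests were chosen with earlier results of these data known. Other gene start definitions, the exchanged day 6 numbers, the near and far splits and the tests of differences between stages were added after seeing the data. Some list genes are not reported here by name.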

Additional observations from a re-analysis of the deposited data

Results flagged for a closer look

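The gap in H3K27ac between pre-acetylated and non-acetylated targets differed between stages. It was 49.8, 52.5 and 47.9 percentage points in the day 3 libraries, 50.2, 48.9 and 44.8 on day 6, 25.8 and 26.0 on day 9 and 44.0 and 44.5 in ESC. The between-stage F of this difference was 61.8, with p = 0.00429 in an exact permutation test over 25200 labelings that was added after seeing the data and is not adjusted. The day 9 libraries, both of batch EA-3702, were the lowest, and the EA-3702 libraries of day 3 and day 6 gave 47.9 and 44.8. Day 9 lists had the widest H3K27ac peaks (median 763 and 735 bp against 382 to 672 bp in the other libraries), and the part of peak width in this was not tested. The same test on KLF4 peaks gave F = 6.78 and exact permutation p = 0.0667.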

How the results depend on the processing

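Across 203 alternatives, 153 kept the direction and side of the threshold or stayed within their spread, 7 of the tests no longer passed, 43 values moved and 0 reversed. Numbers of targets, pre-acetylated and non-acetylated targets became 9579, 4269 and 4967 with the top 50% by score. They became 9801, 4753 and 4647 with q at most 0.01, and 44618, 17293 and 25503 with a peak in either day 3 KLF4 library. Equal numbers of top peaks, cut in the H3K27ac and KLF4 lists at once, gave 12711, 4253 and 8013. The balance of the classes thus differed between these settings. Leaving out 1 library gave 17909 to 34404 targets, 9066 to 15747 pre-acetylated and 8822 to 17505 non-acetylated. The share acetylated on day 3 was 68.1% and 16.0% (pre-acetylated, non-acetylated) with 50% overlap, 73.4% and 21.1% over the central 200 bp, and 75.4% to 85.3% and 15.4% to 36.5% with 1 library left out. The share near a start was 63.4% of pre-acetylated targets with the top 50% and 59.0% with q at most 0.01. It was 73.9% and 13.9% with equal numbers, 63.7% and 11.7% with 50% overlap, 63.2% and 10.1% over 200 bp, 50.0% and 6.52% with table starts alone, 59.0% and 12.4% with either gene end, 56.7% and 5.01% at 1 kb, 65.0% and 15.6% at 5 kb, and 59.6% to 62.1% and 8.47% to 9.75% with 1 library left out.

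The KLF4 persistence difference was 2.51 (exact permutation p = 0.445) far from starts and 17.0 to 29.8 with 1 library left out. The later site comparison ranged from 8.29 to 25.9 with 1 library left out, where p could not go below 0.0625 once an H3K27ac library was missing. Numbers 1 and 2 recur in batch DG-3458 on day 3, day 6 and ESC, and deviations of same-numbered libraries correlated at 0.000464, -0.0109 and 0.00208. These are correlations of called peaks over the targets, which cannot show whether same-numbered libraries came from the same cells. The replicate block joined libraries of the same number from both batches. Permuting within it, F stayed 10.9 (exact permutation p = 0.0231) for pre-acetylated and 17.2 (p = 0.0102, exact) for non-acetylated targets. The same values came after swapping the day 6 numbers, as the names of the peaks have them. The batch block gave p = 0.0296 and 0.0185 (exact permutation). The F values moved to between 6.87 and 24.3, and 8.98 and 38.9, with 1 library left out.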

Other observations

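Regions called in 1 of the 2 day 3 KLF4 libraries, and so outside the targets, numbered 26709. Classing every peak of the DG-4040 list, shared peaks included, gave 17505 non-acetylated regions with day 3 H3K27ac in 14.4%, 11.1% and 20.8%, and every peak of the EA-3702 list gave 17088 with 22.0%, 17.6% and 29.1%. Both were below the non-acetylated targets of both lists in each of the 3 libraries.

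Very wide targets were mostly pre-acetylated: 32 pre-acetylated and 4 non-acetylated targets exceeded 2 kb, although the widest of all (5913 bp) was non-acetylated.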
